A study of Mus musculus with 6 samples.

Results

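YBX1 peaks that lie close together were taken from 3 lists of chromatin immunoprecipitation peaks in a mouse line of pro-B origin, BaF3, that was left untreated and carried the JAK2 V617F mutant. A peak belonged to the set when its pileup, the number of extended tags over its summit, was at least 80 and under 240, and when another summit of the same list lay under 10 kb away. Peaks that shared width, summit offset (summit minus start) and pileup with another peak of the list were left out, and the rest are called clustered peaks. List 1 held 2266 of them among 7053 peaks, list 2 held 368 among 2628 and list 3 held 523 among 2827, which is 3157 of 12508 peaks in all. Peaks of the same pileup range with no copy and no close neighbour, called isolated peaks, numbered 1604, 1046 and 1260 and served for comparison.

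The study looked for sites on DNA bound by YBX1 in these cells. It had 3 YBX1 immunoprecipitates and 3 inputs, 1 of each per replicate number, all from the same untreated JAK2 V617F cells, and each list was called against the input of its own number. The labels name no parental BaF3 cells without the mutant, no cells without YBX1 and no control antibody among the 6 libraries, and do not say whether the replicates were separate cultures, so spreads between lists may be technical. The caller kept between 67.0 M and 69.7 M tags per immunoprecipitate, and 87.6 M, 70.4 M and 67.0 M tags in the inputs of lists 1, 2 and 3. List 1, which had the most peaks, also had the input with the most tags, and the part of this in its counts was not tested.

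YBX1, a member of the cold shock domain family, binds single-stranded nucleic acids, RNA among them, and takes part in splicing, translation and mRNA stability. It was named for its binding to the Y-box, a promoter element with an inverted CCAAT. JAK2 V617F is a constitutively active kinase found in myeloproliferative neoplasms. Reads from repeated sequence often fit several places of a genome, so pileup over repeats depends on how such reads are placed. How they were placed here is not given in the sources used here.

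Promoter windows met few peaks of any kind. Of 32851 RefSeq promoter windows of GRCm38.p6, each of 300 bases from 250 before to 50 after a gene's start, 4 overlapped a clustered peak, and all 4 were on chromosome 8. Peaks of any kind overlapped 5 windows in list 1, 0 in list 2 and 10 in list 3, so the number for clustered peaks is not particular to them. The 4 are shown because 3 of them carry the same sequence although the peaks over them passed the rule against copies. These belong to 4930467E23Rik (chr8:19729326-19729625, plus strand), Gm15319 (chr8:20363153-20363452, minus strand) and Gm21119 (chr8:20614677-20614976, plus strand). The remaining window belongs to Gm51573 (chr8:55372243-55372542, plus strand). The capitals mark CCAAT or its reverse complement ATTGG, the core of the Y-box.
4930467E23Rik, Gm15319 and Gm21119: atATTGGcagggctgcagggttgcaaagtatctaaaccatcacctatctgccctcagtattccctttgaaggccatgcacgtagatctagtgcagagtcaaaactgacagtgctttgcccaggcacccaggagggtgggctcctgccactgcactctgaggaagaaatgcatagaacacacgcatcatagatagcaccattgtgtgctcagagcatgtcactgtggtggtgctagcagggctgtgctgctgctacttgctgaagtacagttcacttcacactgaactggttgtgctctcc
Gm51573: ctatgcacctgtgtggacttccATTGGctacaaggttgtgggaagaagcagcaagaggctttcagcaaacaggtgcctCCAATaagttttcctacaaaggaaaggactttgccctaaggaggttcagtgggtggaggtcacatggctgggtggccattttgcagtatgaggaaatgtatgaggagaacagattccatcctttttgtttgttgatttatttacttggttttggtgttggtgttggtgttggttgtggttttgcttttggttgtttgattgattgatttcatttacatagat

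In list 3 the summits stood at base 197 of the window of 4930467E23Rik, 198 of that of Gm15319 and 197 of that of Gm21119. The pileups there were 123.01, 123.97 and 123.01 and the folds over input 2.03, 1.74 and 1.72. The peaks differed in width, at 297, 272 and 366 bp, and in summit offset, and the one at Gm15319 also in pileup, so they passed the rule. The peak over the window of Gm51573 was called in list 1, with pileup 185 and fold 1.51, and its summit lay outside the window, upstream of the start. The peaks over the windows of 4930467E23Rik, Gm15319 and Gm51573 overlapped no peak of another list. The one at Gm21119 overlapped an isolated peak of list 1, whose summit at 20614670 lay before the window. CCAAT or ATTGG stood at base 3 of the shared window, and at bases 23 and 79 of that of Gm51573. Searched on both strands, CCAAT was present in 37.4% of all windows, so its presence in these is a description and not a sign of a site.

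Clustered peaks lay between isolated peaks and all peaks in local input. The caller's fold, the ratio of pileup to local input with 1 added to each, had a median of 1.76 in list 1, 1.71 in list 2 and 1.74 in list 3. Solved for the input, these folds gave a local input of 26.1, 23.9 and 24.7 times the genome-wide level at the median clustered peak, 21.4, 22.1 and 22.0 times at the median isolated peak, and 28.2, 26.4 and 25.2 times at the median of all peaks. Folds of 2 or more were found in 30.9%, 15.8% and 22.8% of clustered peaks and in 44.5%, 28.5% and 35.3% of isolated peaks. Over the 3 lists the median fold was 1.74 ± 0.0252 (SD, n = 3 lists) for clustered and 1.87 ± 0.0764 for isolated peaks. Pileup chose the members and fold comes from the same measurement, so these values are given without a test.

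The values nearest the limits of the rule were as follows, list by list. The lowest pileups inside were 80, 81 and 81.68, and the highest pileups just below were 73, 77 and 76.88. The highest inside were 239, 239 and 239.28, and peaks at 240, 240 and 240.24 were outside. The farthest close neighbours lay 9.791, 9.674 and 9.102 kb away, and the nearest neighbours that were too far lay 10.15, 10.14 and 10.43 kb away. Peaks left out as copies numbered 688, 90 and 161 among those with pileup and neighbour in range.

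Chained where neighbouring summits lay under 10 kb apart, the clustered peaks formed 1305, 232 and 320 clusters. Of these, 512, 102 and 142 clusters held 2 clustered peaks, 132, 9 and 27 held 3, and 54, 5 and 2 held 4 or more, with 7, 5 and 5 at most. The other 607, 116 and 149 had 1 clustered peak, whose neighbours were of other kinds. The nearest was a peak with pileup of 240 or more in 67.4%, 57.8% and 48.3% of these, and an identical copy in 31.5%, 39.7% and 44.3%. Clusters of 2 or more had a median span of 2.19, 1.99 and 1.95 kb, and the longest spanned 32.5, 15.5 and 15.4 kb.

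Within clusters most summits were closer than the rule required. The 961, 136 and 203 chained pairs had median distances of 1384, 1509 and 1397 bp, and 67.0%, 61.0% and 66.5% of them were under 2 kb. The closest pairs were 246, 229 and 253 bp apart. No single spacing held many pairs: the fullest 20 bp step held 16, 4 and 8 pairs, or 1.66%, 2.94% and 3.94%.

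**Figure D1:**
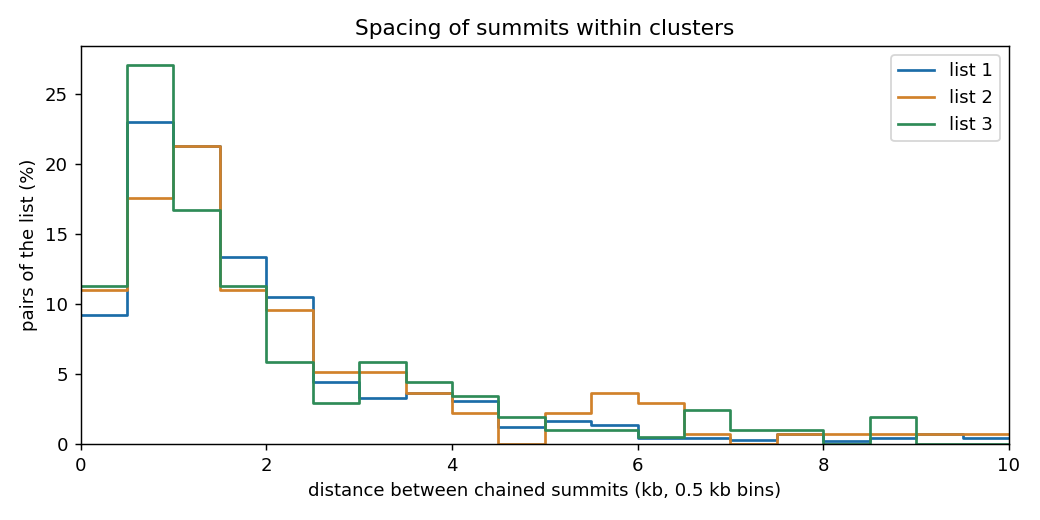
Distance between neighbouring summits of a cluster (x axis, kb, in steps of 0.5 kb) against the percent of the chained pairs of each list (y axis), with 961, 136 and 203 pairs in lists 1, 2 and 3. All 3 lines are highest under 2 kb and run low to the 10 kb that the rule allows.

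Joined over lists where their spans overlapped, the clusters gave 1423 regions. Of these, 1063 (74.7%) had clustered peaks in 1 list, 286 in 2 lists and 74 (5.20%) in 3 lists. The 951 regions with clustered peaks in list 1 alone made up 66.8%, against 41 and 71 for lists 2 and 3. List 1 held 2266 of the 3157 clustered peaks, and of all its peaks of any kind only 42.2% overlapped a peak of another list. A region counted for 1 list can also hold peaks of other kinds in another: 13.8% and 14.6% of the clustered peaks of list 1 counted as isolated in lists 2 and 3. These counts are therefore descriptions. In 33 regions each list had at least 2 clustered peaks.

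Ranked by the lowest number of clustered peaks in a list, the first region lay inside Asic2, which encodes a neuronal acid-sensing ion channel subunit (chr11:81546418-81552310, 5.89 kb). It held 5, 4 and 3 clustered peaks, 12 in all, as many as the next region and one at 20498104 on chromosome 8. At 81549543 to 81549544 the pileup was 192, 198 and 183 in lists 1, 2 and 3, and the fold 3.22, 2.56 and 2.59. At 81551981 to 81551982 the pileup was 167, 177 and 161, with folds of 2.54, 2.51 and 2.39. In each list these were the strongest peaks of the region by fold, and their summits differed by at most 1 bp between lists. Another position, at 81548113 to 81548114, had pileups of 205, 224 and 203 with folds of 2.24, 1.89 and 1.82. A further peak, 387 bp from it in list 1 and 384 bp in list 2, was not called in list 3, and the weakest, with fold 1.41, was called in list 1 alone.

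The region 17.7 kb from Apba2, a neuronal adaptor gene, lay outside protein-coding genes and held 4, 5 and 3 clustered peaks (chr7:64468346-64483820, 15.5 kb). Its 3 outer and middle peaks recurred in every list. The first had pileups of 122, 130 and 130, the second 124, 137 and 133, and the third 126, 137 and 133. Their folds were 2.67, 2.26 and 2.26 in list 1, 3.21, 3.09 and 3.03 in list 2, and 2.78, 2.62 and 2.52 in list 3, so list 2 was the highest at each. Another peak was shared by lists 1 and 2, with pileup 86.0 and 94.0 and fold 2.31 and 3.26. List 2 had 2 further peaks here with pileups too low for the rule.

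Ccdc50, which encodes a coiled-coil protein of epidermal growth factor receptor signalling, held 3 clustered peaks in each list (chr16:27423362-27424901, 1.54 kb). The 2 peaks at the higher coordinates had equal values within each list, with pileup 190 and fold 2.15 in list 1, 182 and 1.87 in list 2, and 185 and 1.99 in list 3. They lay 618, 619 and 618 bp apart. The first peak was lower, with pileups of 121, 122 and 120.

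Pde1c, a calmodulin-dependent cyclic nucleotide phosphodiesterase gene, had 3 clustered peaks of nearly equal height in each list (chr6:56246825-56248604, 1.78 kb). List 1 had pileups of 184 to 186, list 2 of 171 to 173 and list 3 of 184 to 185. The folds were 2.15, 2.00 and 2.39 in list 1, 1.79, 1.67 and 2.00 in list 2, and 2.05, 2.00 and 2.05 in list 3. The summit of the first peak moved between lists, from 56246895 and 56246897 in lists 1 and 3 to 56247072 in list 2. The last moved as well, from 56248543 and 56248541 in lists 1 and 2 to 56248339 in list 3. The middle summit stayed within 56247926 to 56247930.

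**Figure D2:**
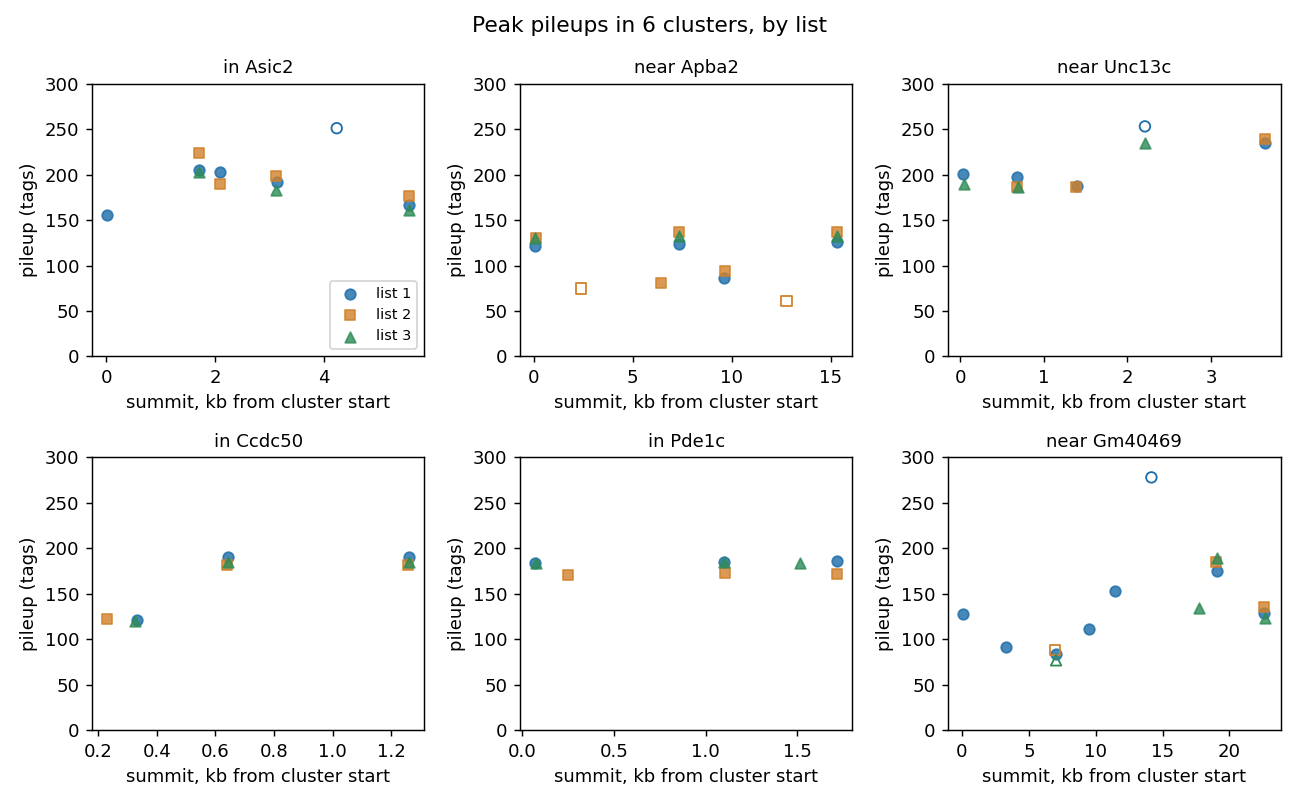
Pileup in tags (y axis) of each peak in 6 regions against its distance from the start of the region in kb (x axis), with circles for list 1, squares for list 2 and triangles for list 3. Filled marks are clustered peaks and open marks are other peaks of the region, and in Asic2 and Ccdc50 the marks of the 3 lists lie nearly on each other at most positions.

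Further regions with at least 2 clustered peaks in each list lay in Tmem132b and in Wapl, whose product releases cohesin from chromatin. In Tmem132b (chr5:125718176-125721517) the summit at 125719639 was at the same base in all lists, with pileups of 141, 154 and 142 and folds of 2.46, 2.75 and 2.86. Its neighbour 1154, 1154 and 1153 bp away had pileups of 222, 212 and 209 and folds of 2.19, 2.03 and 1.76. In Wapl (chr14:34708194-34709402) the pair had pileups of 191 and 226 in list 1, 193 and 225 in list 2 and 190 and 224 in list 3. The wider spread was in fold, at 1.80 and 2.26, 1.75 and 1.68, and 1.68 and 1.84, so that the order within the pair was not the same in every list.

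Most leading regions lay outside protein-coding genes, but so did most peaks of any kind. Summits inside such genes made up 23.5%, 24.8% and 24.9% of all peaks in lists 1, 2 and 3. A leading region outside genes lay 331 kb from the connexin gene Gja1, with 5, 3 and 2 clustered peaks. Its folds were 1.61 to 3.22, 1.62 to 2.56 and 1.65 to 2.59 in the 3 lists. One lay 69.8 kb from Unc13c, a gene of synaptic vesicle priming, with median folds of 1.66, 1.62 and 1.65 in the 3 lists. One lay 4.96 kb from Kdm4a, a histone demethylase gene, with 4, 2 and 2 clustered peaks. A region 77.2 kb from Ctnnd2, a catenin gene, held a pair 411 bp apart in lists 1 and 3, with pileup 213 and fold 1.97 at both summits in list 1 and 212 and 2.18 at both in list 3. List 2 called a peak over the first of the pair only, with pileup 201 and fold 1.74 and its summit at 30094053, apart from those of lists 1 and 3. It called no peak over the second. The pair 153 kb from Slitrk2, a neuronal membrane protein gene, was also 411 bp apart, in all 3 lists, with pileups of 229, 231 and 203 at both summits.

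Inside genes, other regions also had clustered peaks in each list. In Trim14, an adaptor gene of antiviral signalling, the peak at 46517315 to 46517319 on chromosome 4 had pileups of 151, 156 and 150 and folds of 1.64, 1.65 and 1.59. In Prnp, the prion protein gene, the peak shared by the lists had pileups of 235, 232 and 233 with folds of 1.64, 1.38 and 1.41, so high pileup went with high input there (35.4, 40.7 and 40.8 times the genome-wide level). In Csnk2a1, which encodes a catalytic subunit of the protein kinase CK2, the summit at 152265248 on chromosome 2 was at the same base in each list, with folds of 2.37, 1.93 and 2.08. Cpd, a carboxypeptidase gene, had 1 clustered peak per list with folds of 2.08, 2.24 and 1.96.

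Fam91a1 differed from these by its low input (chr15:58438456-58439543). Its 1 clustered peak per list had pileups of 84.0, 105 and 101 and folds of 3.67, 5.20 and 7.28. The local input was 5.49, 4.71 and 3.22 times the genome-wide level. The folds 5.20 and 7.28 were the highest of any clustered peak in lists 2 and 3, and the summits at 58438610 to 58438614 were within 4 bp.

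In several genes a region had clustered peaks in 2 lists only. The one in Slc2a12, a glucose transporter gene, had 4 and 2 in lists 1 and 2, and its 1 peak in list 3, with pileup 129, counted as isolated there. The one in Grid1, a gene of a glutamate receptor-like subunit, had 3 and 2 in lists 1 and 3, and its 1 peak in list 2 counted as isolated. In both genes a peak left the set where its neighbours were not called. The region in Hmox2, a heme oxygenase gene, had 3 and 2 in lists 1 and 2 and no peak in list 3.

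Counted over all 21779 protein-coding genes, 294, 53 and 78 had a clustered peak inside their span in lists 1, 2 and 3 (1.35%, 0.243% and 0.358%), and 311 (1.43%) in any list. None of the 187 distinct genes in the 9 lists of named genes had one. Those lists held JAK-STAT components, the RAS, ERK and MNK kinase pathway, Y-box and cold shock proteins, splicing factors and reported YBX1 or CCAAT targets. They also held markers of B cells, of myeloid cells, of T and NK cells, and of mast cells, erythroid cells and megakaryocytes. With a background of 1.43%, a count of 0 among 187 is not a result about these genes. DNA was measured here and not RNA, so marker genes give no check of the cell type.

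Gene families named by symbol were set beside the 1.43% of all protein-coding genes with a clustered peak in any list. Vomeronasal receptor, Zfp, cytochrome P450 and solute carrier genes were near that share, and olfactory receptor genes, at 0.0902%, were below it. Of 1109 olfactory receptor genes 1 had a clustered peak, Olfr631, with pileup 189 and fold 2.43 in list 1 and 180 and 1.79 in list 2. Of 352 vomeronasal receptor genes 4 had one (1.14%), clustered in list 1 only. Those in Vmn2r27, Vmn2r38 and Vmn2r60 overlapped peaks of other kinds in other lists, and that in Vmn2r35 did not. Of 400 zinc finger genes named Zfp 4 had one (1.00%). Solute carriers had 8 of 389 (2.06%), and 4 of these had one in at least 2 lists. Protocadherins had 8 of 69 (11.6%), but 7 of these were overlapping spans of the Pcdha genes that share the same pair of peaks. Of 4 stearoyl-CoA desaturase genes 1 had a clustered peak, Scd3, with pileup 220 and fold 1.93 in list 1 and 224 and 1.67 in list 2 at the same summit. Of 27 natural killer lectin-like receptor genes 1 had one (3.70%), Klra17, in list 1 only. Major urinary protein (22 genes), Btbd35f (29), serpin (63) and UDP glucuronosyltransferase (22) genes had 0. In families this small, a count of 0 or 1 is not a result about the family. Of 106 cytochrome P450 genes 2 had one (1.89%). Gene spans differ in length between families, and these shares were not corrected for it.

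In the shares inside genes and near gene ends the clustered peaks were close to isolated ones, but not in distance to a gene end. Summits inside protein-coding genes made up 21.7%, 21.9% and 23.6% of clustered peaks, 23.7%, 23.6% and 23.9% of isolated peaks and 23.5%, 24.8% and 24.9% of all peaks. The difference of clustered minus isolated was -1.31 ± 0.927 percentage points (SD, n = 3 lists), lower in 3 of 3 lists (exact sign-flip permutation test, two-sided, p = 0.25, the smallest that 3 lists allow). Summits within 5 kb of a gene end made up 4.25%, 4.38% and 4.61% of clustered peaks, 4.19%, 3.93% and 3.42% of isolated peaks, and 4.80%, 5.32% and 5.08% of all peaks. That difference was 0.566 ± 0.571 points (exact sign-flip permutation test, p = 0.25). Both differences changed sign among peaks with a −log10 q of at least 5, to 0.137 and -2.33 points, and the second also without the dense stretch of chromosome 8 described below, to -0.0655. The median distance to an end of a protein-coding gene was 62.0, 61.1 and 63.8 kb for clustered peaks. For isolated peaks it was longer in each list, at 83.4, 77.8 and 82.9 kb. Genes of long non-coding RNA held 5.31%, 2.47% and 5.57% of clustered peaks and 5.75%, 6.04% and 5.97% of isolated peaks. These distances and shares were not tested. Exons, introns and untranslated regions were not analysed here.

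The densest stretch of the genome was the same in every list. The window from 20 to 21 Mb of chromosome 8 held 31, 18 and 17 clustered peaks, more than any other window of 1 Mb in its list. From 19 to 21 Mb, a range set after the values were seen, there were 35, 23 and 22, which is 1.54%, 6.25% and 4.21% of the clustered peaks of each list. Their pileups were low within the set, with medians of 127, 115 and 114, and the genes there included 4930467E23Rik, Gm15319 and Gm21119, whose shared promoter window is printed above. Of its clustered peaks, 37.1%, 43.5% and 40.9% recurred in another list, against 43.9%, 82.9% and 82.8% of all clustered peaks. Over all peaks of any kind the shares were 42.2%, 80.6% and 81.6%. The stretch was thus far below the whole in lists 2 and 3, and near it in list 1. Annotated pseudogenes held 1.99%, 2.47% and 4.22% of all clustered peaks, and 1.80%, 1.17% and 3.21% without this stretch. They held 1.94%, 2.21% and 1.19% of isolated peaks with the stretch kept in, so these compare only with the first values.

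Peaks recur by overlap when at least 1 bp is shared with any peak of another list. Of the clustered peaks, 43.9% in list 1 (95% Wilson interval 41.8 to 45.9), 82.9% in list 2 (78.7 to 86.4) and 82.8% in list 3 (79.3 to 85.8) were found in another list. Over all peaks these shares were 42.2%, 80.6% and 81.6%, so clustered peaks were near the whole. Isolated peaks were found in 50.4%, 85.6% and 84.2%. Clustered minus isolated was -3.56 ± 2.69 percentage points (SD, n = 3 lists) and lower in 3 of 3 lists (exact sign-flip permutation test, two-sided, p = 0.25). With replicate 1 left out, so that lists 2 and 3 were compared only with each other, it was -11.6 points. Without the stretch of chromosome 8 it was -2.11 points and lower in 2 of 3 lists. Among peaks with a −log10 q of at least 5 it was -2.29 points, but lower in only 1 of 3 lists. The intervals cover counting error only, and peaks of a list are not replicates. Overlap is mutual, so the shares of the 3 lists depend on each other. The SD and the permutation test treat the lists as independent, which for this share they are not.

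Local input moved with this share, in opposite directions in different lists. In list 1 the share found went from 52.9% at 10 to under 20 times the genome-wide level to 30.4% at 30 times and over. In list 2 it went from 68.1% to 93.3% between the same bands, and in list 3 from 77.6% to 90.1%. In the bands of 10 to under 20, 20 to under 30, and 30 and over, clustered minus isolated was -3.72, -5.71 and -2.26 points over the 3 lists. Under 10 times it was 1.06 points, higher in list 1 (21 of 28 clustered against 53 of 96 isolated peaks found) and lower in list 2 (4 of 6 against 28 of 39) and list 3 (4 of 7 against 35 of 51). Clusters of 4 or more had 37.7%, 52.4% and 22.2% of their peaks found, out of 239, 21 and 9 peaks. Single clustered peaks had 48.4%, 86.2% and 83.9%. In list 2 the low share of large clusters came with the stretch of chromosome 8, which held 12 of their 21 peaks: without it 8 of 9 (88.9%) were found. Without it the share in list 1 was 38.3%, and in list 3 1 of 5 peaks was found, all of the 1 cluster near Smurf2.

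**Figure D3:**
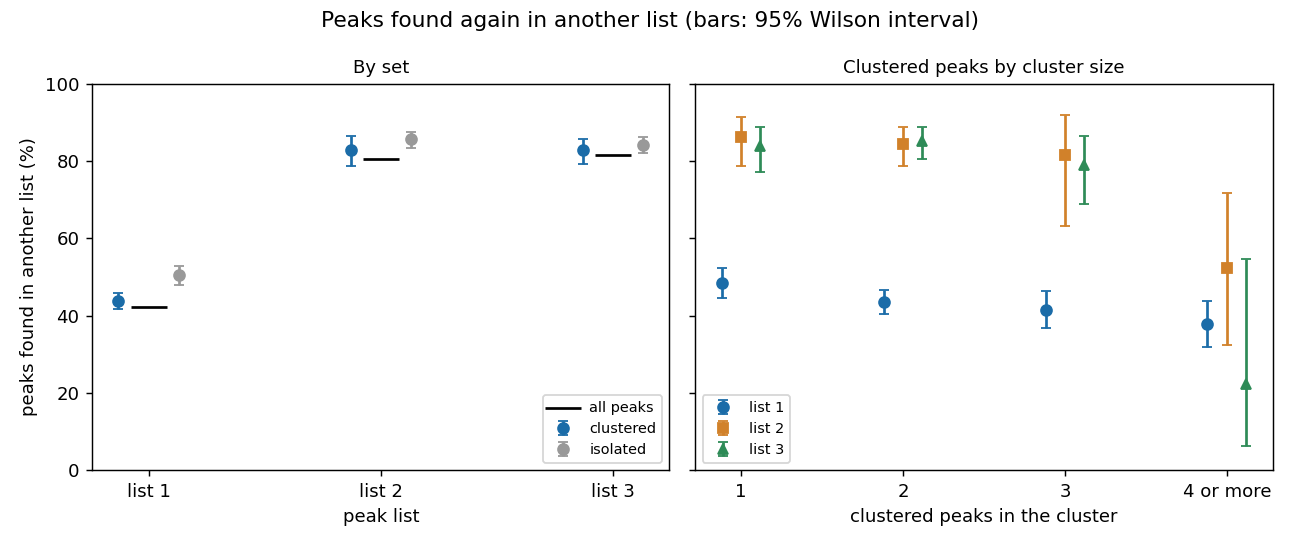
Percent of peaks found in another list (y axis) for clustered and isolated peaks and all peaks of each list (left), and for clustered peaks by the number in their cluster (right), with 95% Wilson intervals that cover counting error only. Clustered peaks sit below isolated peaks in each list, and the low mark of clusters of 4 or more in list 2 comes with the stretch of chromosome 8 (88.9% without it).

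A clustered peak found again was not always clustered again. Of the 368 in list 2, 70.1% overlapped a clustered peak of list 1, 4.89% an isolated one, 3.53% an identical copy, and 20.7% met no peak. Of the 523 in list 3, 66.3% overlapped a clustered peak of list 1 and 4.59% an identical copy. In the other direction 11.3% and 15.1% of the 2266 in list 1 were clustered in lists 2 and 3, and 13.8% and 14.6% were isolated there. Fewer peaks in a list leave fewer neighbours, so isolated there can mean that the neighbour was not called.

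Where 2 lists shared a peak, they placed it alike. Matched to lists 2 and 3, 643 and 760 clustered peaks of list 1 had summits a median of 3 and 2 bp away, and 76.2% and 77.2% were within 20 bp. For the 193 peaks of list 2 matched in list 3 these values were 3 bp and 77.7%. Pearson's r of pileup over the matched peaks was 0.966, 0.961 and 0.939 for lists 1 and 2, 1 and 3, and 2 and 3, and that of the local input was 0.949, 0.939 and 0.932. That of fold was lower, at 0.763, 0.742 and 0.871. These correlations run over peaks that share libraries, repeats and a bounded pileup, and are descriptions.

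**Figure D4:**
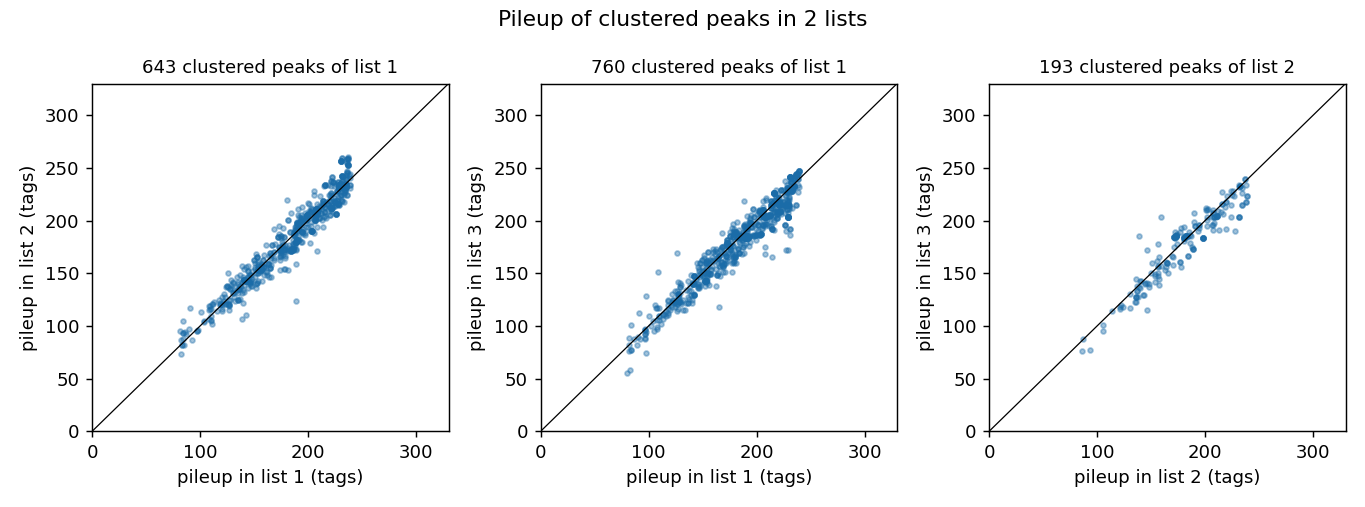
Pileup in tags of clustered peaks of the first list (x axis) and of the peak that overlaps each in the second list (y axis), for 643, 760 and 193 matched peaks, with the line of equality. The points follow the line in all 3 panels, with Pearson's r of 0.966, 0.961 and 0.939.

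For pairs with both peaks found, the spacing follows from the summits and was close too. Of the 136 chained pairs of list 2, 80 had both peaks found apart in list 1, where the distance differed by a median of 7.50 bp and by at most 20 bp in 65.0%. Of the 203 pairs of list 3, 131 were found in list 1 with a median difference of 4 bp, and only 34 (16.7%) in list 2, with 3.50 bp.

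The rule left out identical copies, but peaks with equal values remained. A clustered peak had exactly the same pileup and fold as another peak of its list, at another width or offset, in 54.4%, 37.0% and 47.8% of cases, against 40.0%, 34.3% and 37.5% of isolated peaks. Pileups are whole numbers of tags before scaling, so some peaks share values without further relation. The other lists were not used to choose the members, and there the equality can be looked at again. Of the clustered peaks found in another list, 314 (31.6%), 80 (26.2%) and 145 (33.5%) were tied with the same partner in both lists. Isolated peaks had 20.1%, 21.8% and 21.5%. All peaks, identical copies included, had 43.4%, 44.0% and 40.8%. The rule thus removed peaks equal in width, offset and pileup, and left peaks equal in pileup and fold. Whether the equal peaks share sequence was not tested.

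**Figure D5:**
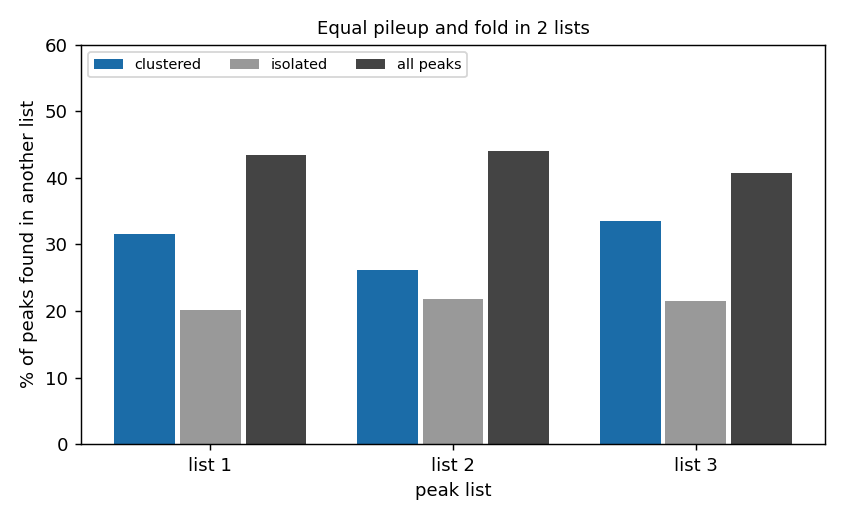
Percent of the peaks found in another list (y axis) that were tied with a partner in pileup and fold in both lists, for clustered, isolated and all peaks of lists 1 to 3. In each list the clustered bar (31.6%, 26.2% and 33.5%) stands between the isolated bar and the bar of all peaks.

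Most of these groups of equal peaks crossed chromosomes, which is a description and not a trait of equal peaks. Unrelated peaks would mostly cross too, since no chromosome held more than 7.55%, 10.3% and 9.37% of the clustered peaks of lists 1, 2 and 3. Of 75 groups of at least 2 clustered peaks of list 1 that were tied again in list 3, 67 (89.3%) lay on 2 or more chromosomes, and of 52 tied again in list 2, 50 (96.2%). The groups described next were chosen after their values were seen, for their size or for a gene named above. One had 7 clustered peaks on 7 chromosomes, 1 of them in Sema3d, a secreted semaphorin gene, and 1 the first peak of the region near Vmn2r117, a vomeronasal receptor gene. All 7 had pileup 207 and fold 2.10 in list 1, all 7 had 211 and 1.87 in list 2, and all 7 had 204 and 1.97 in list 3. Their widths in list 1 ran from 305 to 348 bp. In list 3, 4 of the 7 met the definition of identical copies.

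A further group had 5 clustered peaks on 5 chromosomes. They had pileup 208 and fold 2.18 in list 1, 208 and 1.92 in list 2 and 203 and 1.94 in list 3. In another group, 7 peaks on 7 chromosomes had pileup 199 and fold 1.96 in list 1 and 205 and 1.66 in list 2, and their summits lay 113 to 115 bp from their starts in list 1. In list 3 this group came apart: 6 of the 7 were called, with 3 different pileups from 186 to 198. Equality in 2 lists thus did not always extend to the third.

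The leading peak of Asic2 belonged to such a group. A peak in the region near Gja1 (summit 56724735 on chromosome 10 in list 1) and one on chromosome 1 (summit 178178093) had the same pileup and fold as it in each list, 192 and 3.22, 198 and 2.56, and 183 and 2.59. The equal pair of Ccdc50 had a counterpart on chromosome 1, 704 kb from the nearest gene end, with the same 190 and 2.15, 182 and 1.87, and 185 and 1.99 at both of its summits. The counterpart was spaced by 618, 617 and 618 bp in lists 1, 2 and 3, against 618, 619 and 618 bp in Ccdc50. What these places share in sequence was not analysed here, since no genome sequence was used.

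Equal values also stood side by side. Neighbouring summits within a cluster had the same pileup in 5.52%, 3.68% and 12.3% of chained pairs, against 1.41%, 2.38% and 1.34% of neighbouring clustered peaks too far apart to be chained. In 28, 3 and 13 clusters of 2 or more all members had a single pileup. An example, chosen after its values were seen, was the cluster near Smurf2, a ubiquitin ligase gene, with 5 clustered peaks of pileup 198 and folds from 1.37 to 1.39, all in list 3. At 1 of the 5 places, lists 1 and 2 each had a peak that counted as isolated, with pileups of 215 and 206 and folds of 1.34 and 1.38.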

How the data were processed

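YBX1 binding to chromatin was measured in untreated BaF3 JAK2 V617F cells with 3 immunoprecipitates and 3 inputs, grouped and numbered by their titles. The submitters' processing notes name Trim Galore, MACS2 and the build GRCm38, and the aligner is not given in the sources used here. Peaks were called by the authors for each replicate against its own input with MACS 2.1.1.20160309, a 160 bp extension, a q threshold of 0.01 and 1 tag per position, with the larger library scaled to the smaller, per the file headers. Pileup is a signal, extended tags over the summit after scaling, which 1 tag per position limits to 320, per the file headers. The deposited fold is a ratio, pileup over local input with 1 added to each, and −log10 q values are as deposited.

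Local input was solved from pileup and fold and divided by the genome-wide level (4.04, 4.12 and 4.04 tags). Genes and promoters came from RefSeq tables of GRCm38.p6, without exons, and 121 protein-coding entries below 3 Mb, chromosome Y aside, were left out. Peaks were compared with isolated peaks by an exact sign-flip permutation over the 3 lists, after a test on simulated data. Shares have Wilson intervals at 95%, for counting error only, and p-values measure only the spread between these samples, which may be technical.

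The members and gene lists were chosen with earlier results of these data known. Named regions were the first 20 with at least 2 clustered peaks in each list, ranked by the lowest number in a list and then the total, the first 20 genes with clustered peaks in at least 2 lists, and the 5 largest clusters of each list; 1 gene named by this rule is not reported here. Alternatives varied the distance, the pileup range, copies, q, the overlap and the replicates. Python 3.11.15, pandas 2.3.3 and statsmodels 0.14.6 were used.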

Additional observations from a re-analysis of the deposited data

How the results depend on the processing

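Clustered minus isolated in the share found in another list ran from -11.6 points without replicate 1 to -2.11 points without the stretch of chromosome 8, and was reversed, at 1.06 points, in the smallest band of local input, under 10 times the genome-wide level; the cause was not tested. The stretch and the bands were chosen after seeing the data. The direction of this difference did not hold in every list under 2 planned settings. With −log10 q held to 5 or more it was -2.29 points and lower in 1 of 3 lists. With a neighbour under 5 kb it was -2.30 points and lower in 2 of 3 lists. Leaving out each replicate gave -11.6 to -4.28 for this share, -1.84 to -0.963 for the share inside genes and 0.256 to 0.819 for the share near gene ends. With −log10 q held to 5 or more, the last 2 reversed, to 0.137 and -2.33 points, and the one near gene ends also reversed without the stretch of chromosome 8, to -0.0655; the cause was not tested. That q limit left 2058 of 3157 clustered peaks, 162 of 360 regions with clustered peaks in 2 or more lists, and 21 of 74 in 3 lists, since fewer peaks enter. Asking for a neighbour in range that is no copy left 985 of 1857 clusters, because clusters of 1 drop out by construction. Without a replicate, regions in 2 lists numbered 75 to 242, the lowest without replicate 1. No paired analysis was possible because each list already joins an immunoprecipitate to the input of the same number and holds no values for single libraries. With 3 lists the exact permutation test could not go below p = 0.25, and regions that were not called have no values here.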
